A study of Mus musculus with 15 samples.

Results

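The expression of 7 genes of MHC class II antigen presentation was followed in whole brain RNA of young and old mice kept on 2 feeding regimens. The genes were chosen by name, as Cd74, H2-Aa, H2-Ab1, H2-Eb1, H2-DMa, H2-DMb1 and Ciita, out of 43629 genes listed per mouse, and all 7 were among the 15864 genes that carried enough reads to be tested. The 15 mice were male C57BL/6J mice, a common inbred strain, with one RNA-seq library per mouse. Controls were fed ad libitum (AL, food always present), and the other mice were on every-other-day feeding (EOD, called IF in the sample labels), which had begun at 2 months of age. Young animals were 3 months old by the labels (4 AL and 3 EOD mice) and old animals 24 months (4 AL and 4 EOD mice).

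MHC class II molecules are pairs of an alpha and a beta chain that present peptides from ingested or endosomal proteins to CD4+ T cells. The invariant chain encoded by Cd74 fills the peptide groove of new pairs and guides them to endosomes. There cathepsins degrade it and the H2-DM dimer exchanges its last fragment for a peptide. In the healthy brain parenchyma class II is sparse. It is carried mainly by activated microglia, by macrophages and dendritic cells at the brain borders and by blood-derived immune cells. Ciita encodes the transactivator that switches the class II genes on, acting through the RFX, CREB and NF-Y proteins bound to the X and Y boxes of their promoters.

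Positions are those of GRCm38, the build of the deposited counts. The 5 H2 genes lie in the MHC on chromosome 17, H2-DMa at chr17:34135182-34139101, H2-DMb1 at chr17:34153072-34160230, H2-Ab1 at chr17:34263209-34269418 and H2-Eb1 at chr17:34305877-34316199 on the plus strand, and H2-Aa at chr17:34282744-34287827 on the minus strand. Ciita is at chr16:10488178-10527564 (plus strand) and overlaps exons of Dexi on the opposite strand, which the strand-aware counting keeps apart. Counts cover the exons of each gene, from 1184 bases in total for H2-Eb1 to 5254 for Ciita.

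RefSeq promoter windows, running from 250 bases before to 50 after the start of a transcript (GRCm38.p6), were matched for 4 of the 7 genes. They are shown because the X and Y boxes are the shared control sequence of this gene family. The letters AGNNACNGA (X box) and GATTGG (Y box) were searched on both strands, and matches are in capitals, 5′ to 3′ on the gene's strand.
H2-Eb1, chr17:34305747-34305836, plus strand: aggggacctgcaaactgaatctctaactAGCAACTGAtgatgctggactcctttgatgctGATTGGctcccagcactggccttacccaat
H2-Aa, chr17:34287854-34287943, minus strand: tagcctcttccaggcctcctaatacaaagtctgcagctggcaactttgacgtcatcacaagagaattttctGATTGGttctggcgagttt
H2-DMb1, chr17:34153086-34153115, plus strand: aggtttacctAGTAACTGAtgatgctaggc
H2-Eb2, chr17:34325525-34325614, plus strand: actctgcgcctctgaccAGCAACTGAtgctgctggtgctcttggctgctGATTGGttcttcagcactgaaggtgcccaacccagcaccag
The H2-Eb1 window holds the X letters at -92 to -84 and the Y letters at -60 to -55 from the start. The H2-DMb1 window holds them at -95 to -87 and at -62 to -57, of which only the X letters are shown. H2-Eb2, a little expressed paralog of H2-Eb1, holds the same arrangement at -133 to -125 and -101 to -96. In H2-Aa only the Y letters matched, at -49 to -44. Each motif alone is common, with the X letters in 17.7% and the Y letters in 16.1% of 32851 windows of 27025 genes. X followed by Y on one strand, with 10 to 30 bases between, was found in 36 windows (0.11%). The 2 windows of H2-DMa held no X match, and they lie upstream of the first base counted for that gene. A match is a description of letters and not evidence of a bound factor.

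All 7 genes were sparse in whole brain. Together they received 3990 reads over the 15 mice, between 121 and 432 per mouse, from libraries of 5198748 to 13610729 reads on genes. Levels are given as CPM (the count scaled to the TMM-adjusted library size), and levels of different genes are set side by side only per kilobase of exon. Per kilobase, H2-DMa averaged 5.35 ± 0.857 CPM (SD, n = 15 mice) and Cd74 5.17 ± 2.74, a difference within their spread. H2-Eb1 (2.67 ± 1.44), H2-Aa (2.15 ± 1.19), H2-Ab1 (1.65 ± 0.882) and H2-DMb1 (1.34 ± 0.476) followed, and none of these differed from its neighbour in this order by more than the larger SD. Ciita stood far lower at 0.171 ± 0.107 CPM per kilobase. By their means, the order of the first 2 genes was not the same in young and old AL mice. In young AL mice H2-DMa (5.04 ± 1.15, n = 4) was above Cd74 (3.45 ± 1.07). In old AL mice Cd74 (8.18 ± 2.61, n = 4) was above H2-DMa (6.28 ± 0.5), a difference within the SD of Cd74. Whether the order changes with age was not tested.

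The third young AL mouse had the largest total but the fewest genes with a read (17280 against 19054 to 20880 in the others), and it was the lowest young AL mouse for Cd74, H2-Aa, H2-Eb1 and Ciita. The third old AL mouse, the library with the fewest reads, was the highest old AL mouse for every gene but H2-DMb1. In that mouse the summed level of 7 monocyte and neutrophil markers was 16.3 CPM, against at most 3.78 CPM in any other mouse. Calls of the 7 genes that were lost or gained without either mouse are named below. The file headers name 3 sequencing lanes, and lane 3 held no young EOD mouse.

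Cd74, the invariant chain, rose with age in AL mice and when both regimens were averaged. The gene is at chr18:60803848-60812646 (plus strand), and 12 of its 1410 exon bases are shared with the microRNA gene Mir5107 on the same strand. In young AL mice it was measured at 3.74, 6.32, 3.4 and 6.02 CPM, and in old AL mice at 7.96, 11.3, 16.6 and 10.3 CPM. Every old AL mouse exceeded every young AL mouse. Among EOD mice it was 3.08, 1.89 and 6.05 CPM in the young and 5.19, 10.01, 9.58 and 7.89 CPM in the old, and one old EOD mouse fell below the highest young one. The old to young difference was 1.22 ± 0.288 (log2 fold change ± SE, 2.32-fold) in AL mice, with an FDR of 0.0494 in edgeR's quasi-likelihood test. In EOD mice it was 1.12 ± 0.34 (2.17-fold), which missed the FDR threshold of 0.1 (FDR 0.418). Averaged over both regimens it was 1.17 ± 0.223 (2.25-fold, FDR 0.00621).
The call in AL mice alone was not robust. It was lost without young AL mouse 3 (1.06, FDR 0.126) or mouse 1 (1.13, FDR 0.127), without old AL mouse 2 (1.22, FDR 0.113) or mouse 3 (1.01, FDR 0.234) and with lane as a covariate (1.09, FDR 0.134). The averaged call held without each single mouse in turn, with FDR between 0.0016 and 0.0375. Within lanes the old AL to young AL difference in log2 CPM was 0.69 in lane 1, 1.95 in lane 2 and 0.75 in lane 3. The EOD difference was 0.72 in lane 1, and in lane 2 the young and old EOD means were 3.97 and 10.01 CPM. In lane 2 the only young AL mouse was mouse 3. The AL difference in lane 3 and the EOD difference in lane 1 each compared 1 mouse with 1.

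The classical alpha chain H2-Aa and its partner beta chain H2-Ab1, which together form the I-A molecule, were about 2-fold higher with age when both regimens were averaged. H2-Aa was measured at 2.05, 3.85, 1.96 and 3.26 CPM in young AL mice and at 5.22, 3.81, 11.2 and 3.95 CPM in old AL mice. One old AL mouse (11.2 CPM) stood above the others, and another lay just under the highest young AL mouse. In EOD mice the levels were 2.26, 2.41 and 2.89 CPM in the young and 3.6, 5.12, 4.14 and 4.81 CPM in the old, with no overlap. The log2 fold change was 1.06 ± 0.315 in AL mice (FDR 0.176), 0.80 ± 0.362 in EOD mice (FDR 0.836) and 0.93 ± 0.24 over both (1.91-fold, edgeR FDR 0.0562). Without old AL mouse 3 the value in AL mice was 0.63.
H2-Ab1 was measured at 2.17, 1.19, 1.28 and 2.43 CPM in young AL mice and at 2.74, 3.94, 5.3 and 4.45 CPM in old AL mice, again with every old mouse above every young one. Its EOD levels were 1.03, 1.72 and 1.58 CPM in the young and 1.09, 3.76, 4.79 and 2.98 CPM in the old. One old EOD mouse thus lay within the young range. The log2 fold change was 1.21 ± 0.373 in AL mice (FDR 0.198), 1.15 ± 0.443 in EOD mice (FDR 0.737) and 1.18 ± 0.289 over both (2.26-fold, edgeR FDR 0.0421).
Both averaged calls were lost without some single mice, while the log2 fold changes stayed between 0.72 and 1.03 for H2-Aa and between 1.04 and 1.33 for H2-Ab1. The call of H2-Aa was lost without old AL mouse 3, young EOD mouse 1 or 2, or old EOD mouse 2 or 4, and that of H2-Ab1 without young EOD mouse 1 or old EOD mouse 3. With lane as a covariate both were lost. Without young AL mouse 3 both held. Within lanes every old to young difference of H2-Aa and H2-Ab1 was positive, from 0.26 to 1.64 and from 0.07 to 1.68 in log2 CPM. The lowest of each compared 1 mouse with 1, and H2-Eb1 and Ciita had negative differences in some lanes (below).

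H2-Eb1 encodes the beta chain of the I-E molecule, whose alpha chain C57BL/6J mice do not express. The alpha chain pseudogene H2-Ea-ps had 0 reads among 142760196 in all mice, which allows up to 0.021 CPM. H2-Eb1 itself was measured at 3.01, 4.21, 1.36 and 1.84 CPM in young AL mice and at 2.24, 3.41, 8.13 and 3.95 CPM in old AL mice. Among EOD mice it was 0.924, 2.75 and 2.1 CPM in the young and 2.93, 4.1, 2.49 and 3.94 CPM in the old. The groups overlapped under both regimens. In AL mice the log2 fold change was 0.74 ± 0.392, and 0.33 without old AL mouse 3. The averaged log2 fold change was 0.80 ± 0.304 (1.74-fold), short of the threshold (edgeR FDR 0.269). Within lanes 1, 2 and 3 the old to young difference in AL mice was -0.63, 1.81 and 1.02 in log2 CPM. In EOD mice it was 1.47 in lane 1 and 0.72 in lane 2.

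The 2 subunits of the peptide editor H2-DM, which loads class II molecules, gave different values. H2-DMa was measured at 5.66, 9.8, 9.52 and 8.12 CPM in young AL mice and at 10.4, 9.19, 11.2 and 10.4 CPM in old AL mice. EOD mice had 7.6, 8.08 and 8.41 CPM in the young and 9.13, 8.76, 7.37 and 8.08 CPM in the old. These ranges overlapped at both regimens, and the averaged difference was 0.18 ± 0.121 (1.13-fold, edgeR FDR 0.609). With 2 SE on either side it spanned 0.957-fold to 1.34-fold, the narrowest range of the 7 genes.
H2-DMb1 was measured at 0.723, 1.28, 2.27 and 1.51 CPM in young AL mice and at 2.24, 2.76, 2.65 and 2.61 CPM in old AL mice, with only young AL mouse 3 reaching the old range. In EOD mice it was 1.13, 2.24 and 0.92 CPM in the young and 2.68, 2.28, 2.76 and 1.83 CPM in the old. The averaged difference was 0.79 ± 0.258 (1.73-fold, FDR 0.175). Without young AL mouse 3 it passed the threshold. Whether the age differences of the 2 subunits differ from each other was not tested.

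Ciita, the transactivator, was close to the detection limit. It was measured at 1.45, 0.366, 0 and 1.51 CPM in young AL mice, where 0 reads in mouse 3 allow up to 0.22 CPM, and at 0.373, 1.31, 1.7 and 0.672 CPM in old AL mice. EOD mice had 0.308, 1.72 and 0.526 CPM in the young and 0.754, 0.569, 1.38 and 0.866 CPM in the old. All groups overlapped. The averaged difference was 0.23 ± 0.533 (edgeR FDR 0.911), and 2 SE on either side reached from 0.562-fold to 2.46-fold. A change of the size measured for Cd74 lies within that range. Within lanes 1, 2 and 3 the old to young difference of Ciita in AL mice was -0.74, 3.02 and -0.96 in log2 CPM. In EOD mice it was 0.89 in lane 1 and -0.61 in lane 2.

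**Figure D1:**
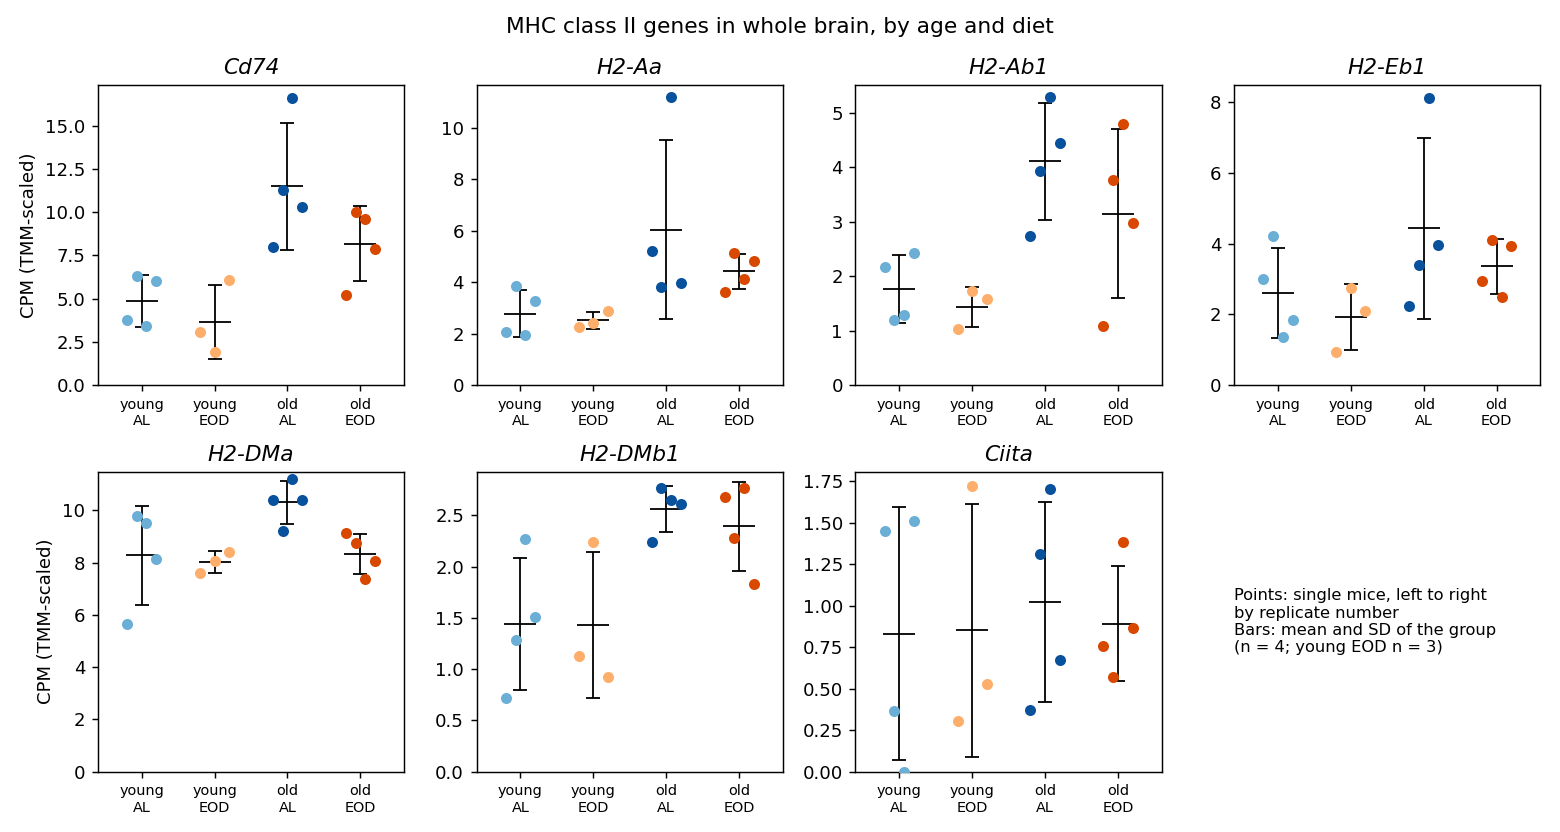
Level of the 7 MHC class II genes in each mouse (vertical axes, TMM-scaled CPM, each from 0 with its own scale) by group (horizontal axes), with the mean and SD of each group. Cd74 and H2-Ab1 show no overlap between young AL and old AL mice and H2-Aa none between young EOD and old EOD mice, and old AL mouse 3 is the highest old AL mouse in 6 of the 7 panels.

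Taken by counts, all 7 genes had a positive log2 fold change with age under both regimens. These included 0.06 ± 0.181 for H2-DMa in EOD mice and 0.26 ± 0.711 for Ciita in AL mice. The latter was -0.21 without young AL mouse 3. In AL mice 1 of 7 passed the threshold upward (Cd74) and none downward, against 0.946% and 0.145% of the 15864 genes tested. In EOD mice 0 of 7 passed, against 0.258% of genes upward and 0.0315% downward. At an unadjusted p under 0.05 in edgeR these were 3 of 7 and 911 of all genes, and DESeq2 called 0 of the 7. At the same unadjusted p, 4 of the 7 and 1511 of all genes passed in AL mice, and 5 of the 7 and 1856 of all genes over both regimens. Over both regimens, 3 of 7 passed upward (Cd74, H2-Aa and H2-Ab1) and none downward, against 1.62% and 0.681% of genes. The median log2 fold change of the 7 genes was 0.78 in AL mice and 0.80 both in EOD mice and averaged, with -0.01, -0.00 and -0.00 for all genes tested. Every old AL mouse was above every young AL mouse for 2 of the 7 genes, against 2.98% of all genes tested. In EOD mice this held for 1 of 7, against 4.75%. Since RNA came from whole brain, more class II-bearing cells and more RNA per cell cannot be told apart. Labels do not say that the mice came from separate cages or litters, and p-values measure the spread between these mice.

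No effect of EOD on any of the 7 genes passed the test, at either age. In young mice the log2 fold change of EOD against AL ranged from -0.48 (H2-Eb1) to -0.03 (Ciita), with a median of -0.15. In old mice it ranged from -0.48 (Cd74) to -0.09 (Ciita), with a median of -0.36, and the median of all genes was -0.00 and 0.00. All 14 values were below 0. The diet differences share mice with the age differences above, and these values are not independent of them.
For Cd74 the difference was -0.39 ± 0.349 in young and -0.48 ± 0.278 in old mice, and 2 SE on either side of the latter reached from 0.487-fold to 1.05-fold. For H2-Aa it was -0.15 ± 0.371 and -0.40 ± 0.304, and for H2-Ab1 -0.31 ± 0.461 and -0.38 ± 0.355. Leaving out each mouse in turn, the old diet difference ranged from -0.62 to -0.28 for Cd74, from -0.58 to 0.03 for H2-Aa, from -0.67 to -0.08 for H2-Ab1 and from -0.58 to 0.05 for H2-Eb1. The highest value was that without old AL mouse 3 for H2-Aa and H2-Eb1, and that without old EOD mouse 1 for H2-Ab1.
No gene at all passed FDR 0.1 for diet in edgeR (0% of 15864 in young mice and 0% in old mice), while 657 and 409 genes had an unadjusted p under 0.05. None of the 7 class II genes was among these. DESeq2 called 1 gene for diet in young mice and 0 in old mice.
H2-DMa was the only one of the 7 with separate groups. Its 4 old EOD mice (7.37 to 9.13 CPM) lay below its 4 old AL mice (9.19 to 11.2 CPM), a difference of -0.30 ± 0.162 with an unadjusted edgeR p of 0.0767 and FDR 1. Such separation downward was seen for 1.36% of all genes, and in young mice, where 0 of 7 genes showed it, for 2.05%.

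**Figure D2:**
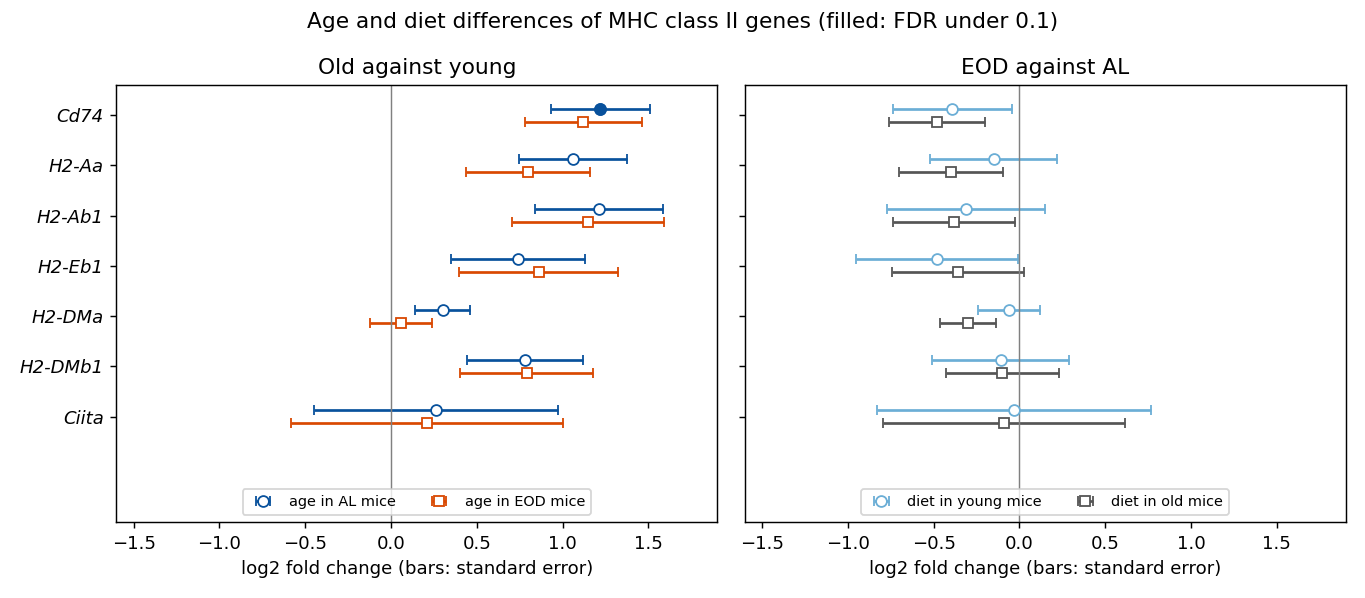
Log2 fold changes (horizontal axes, bars are the standard error) of the 7 genes in edgeR, old against young in AL and EOD mice (left) and EOD against AL in young and old mice (right), with filled symbols for FDR under 0.1. All values lie above 0 on the left and below 0 on the right, and only Cd74 in AL mice is filled.

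Whether the age difference depended on the regimen was tested by the interaction. It ranged from -0.25 ± 0.481 (H2-Aa) to 0.12 ± 0.602 (H2-Eb1), with every FDR at 1. For Cd74 it was -0.09 ± 0.45, and 2 SE on either side reached from 0.502-fold to 1.75-fold. None of the 7 genes had an unadjusted p under 0.05, which 362 genes had. No gene of any kind passed the FDR threshold in edgeR (0% of 15864) or in DESeq2 (0 genes), while edgeR without the count filter called 26 genes. These ranges leave room for sizeable differences between the regimens in either direction.

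Mice that were high for Cd74 within their group tended to be high for H2-Aa. With each group mean removed, log2 CPM of both genes correlated over 15 mice at Pearson r = 0.64 (permutation within groups, p = 0.00763, adjusted over 6 genes 0.0458) and Spearman rho = 0.62 (permutation p = 0.0244, adjusted 0.146). It was r = 0.61 with an adjusted permutation p of 0.0715 without young AL mouse 3. Without the 2 mice farthest from the median of Cd74 (young EOD mice 2 and 3) it was r = 0.75. That left a single young EOD mouse, which equals its own group mean and adds nothing to r. The value of 0.75 is therefore given as a size only, without a call. The r with Cd74 was 0.47 for H2-Ab1, 0.36 for H2-Eb1, 0.15 for H2-DMa, 0.14 for Ciita and -0.35 for H2-DMb1, and none of these passed. For H2-DMb1 the value moved to 0.01 without those 2 mice.

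**Figure D3:**
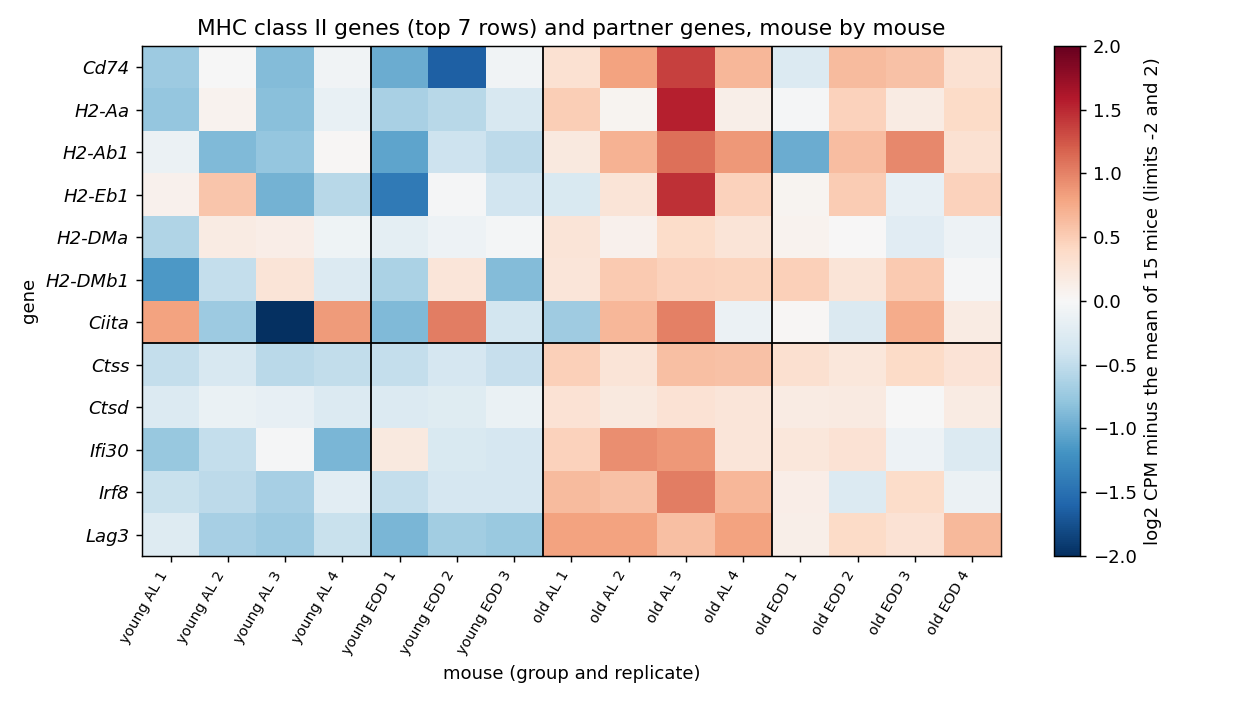
Level of the 7 class II genes (above the horizontal line) and 5 partner genes in each of the 15 mice (columns), shown as the distance of its log2 CPM from the average of that gene, with colours saturating at -2 and 2. Old AL mouse 3 is dark red for Cd74, H2-Aa and H2-Eb1, young AL mouse 3 is at the lower limit for Ciita (0 reads), and Ctss and Lag3 separate young from old mice.

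Of 9 genes that process class II and its peptides, all tested, 3 rose with age in AL mice, 2 in EOD mice and 2 over both regimens, and none fell. The median log2 fold change of the 9 was 0.12, 0.14 and 0.13, respectively. Ctss, cathepsin S, which cleaves the invariant chain in antigen-presenting cells, was at 71.9, 80.6, 69 and 70.9 CPM in young AL and at 139, 120.2, 153 and 152 CPM in old AL mice. EOD mice had 72, 79.6 and 73.3 CPM in the young and 126, 117, 131 and 122 CPM in the old. No old mouse came near the young range. It rose by 0.95 ± 0.0815 in AL mice (FDR 4.56e-07) and by 0.73 ± 0.0898 in EOD mice (FDR 0.000155, edgeR), and both calls held with each mouse left out in turn and with lane as a covariate.
Ctsd, the lysosomal aspartic protease cathepsin D, lay between 362 and 404 CPM in all young mice and between 438 and 540 CPM in all old mice. It rose by 0.47 ± 0.0628 in AL mice (FDR 0.000205) and by 0.34 ± 0.0683 in EOD mice (edgeR FDR 0.0323), of which the latter was lost without any of 5 EOD mice (young 1 and 2, old 1, 2 and 4). Ifi30, the thiol reductase that unfolds antigens in lysosomes, rose in AL mice from 1.17 to 2.34 CPM in the young to 2.86 to 4.72 CPM in the old (1.21 ± 0.295, edgeR FDR 0.0595). In EOD mice its difference was 0.17 ± 0.327. The call in AL mice was lost without any of 6 AL mice (young 1, 2 and 4, old 1, 2 and 3). Ctsb, Ctsl, Lgmn, Sppl2a and the ubiquitin ligases March1 and March8, which remove class II from the surface, were between -0.14 and 0.14 in either regimen without a call.

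The proteins that assemble on class II promoters gave no such difference. None of 7 genes (Rfx5, Rfxap, Rfxank, Nfya, Nfyb, Nfyc and Creb1) passed the threshold in either regimen or averaged, and their averaged log2 fold changes ranged from -0.16 (Nfyb) to 0.13 (Nfyc), with a median of -0.00. Of 9 genes of the interferon gamma axis, the main inducer of Ciita, 7 were tested and 1 rose in AL mice. This was Irf8, a myeloid transcription factor, at 3.01, 2.84, 2.57 and 3.6 CPM in young AL mice and 6.59, 6.43, 8.7 and 6.72 CPM in old AL mice (1.23 ± 0.207, edgeR FDR 0.00282), and the call held without each mouse in turn. In EOD mice it was 2.98, 3.27 and 3.29 CPM in the young and 4.61, 3.41, 5.43 and 3.85 CPM in the old. The age difference in EOD mice was 0.46 ± 0.236 and did not pass (edgeR FDR 0.917). Irf8 was lower in every old EOD mouse than in every old AL mouse, as were 1.36% of all genes tested. Its diet difference in old mice was -0.70 ± 0.2 with an unadjusted edgeR p of 0.00226 and FDR 1. Irf1, an interferon-induced transcription factor, did not pass in AL mice (0.42 ± 0.183). The ligand gene Ifng had 0 reads in all 15 mice, which allows up to 0.021 CPM, and Socs1 had 25 reads in total and was not tested.

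Of 8 genes of co-stimulation and class II recognition, 5 were tested, 1 rose in each regimen and 2 rose averaged. Lag3, a receptor that binds class II, was at 5.42, 4.03, 3.85 and 4.77 CPM in young AL and 11.6, 11.5, 10.03 and 11.5 CPM in old AL mice. EOD mice had 3.39, 3.95 and 3.81 CPM in the young and 7.12, 8.53, 8.01 and 10.4 CPM in the old. It rose by 1.32 ± 0.168 in AL mice (FDR 0.000112) and by 1.20 ± 0.197 in EOD mice (FDR 0.00553, edgeR), with or without any single mouse. Icosl, the ligand of the T cell co-stimulator ICOS, rose when averaged (0.58 ± 0.164, edgeR FDR 0.0894), but this call was lost in 10 of 16 alternatives, namely lane as a covariate and leaving out 9 of the 15 mice singly, old AL mouse 3 among them. Cd4 (-0.22 ± 0.169), Cd86 (0.44 ± 0.248) and Cd274 (0.28 ± 0.19) did not pass, and Cd80, Cd40 and Pdcd1lg2 had 59, 53 and 11 reads in all mice.
The accessory chains were at the limit of detection. H2-Ob, a subunit of the H2-DO dimer that inhibits H2-DM, was the only 1 of 5 with enough reads and gave 1.20 ± 0.451 averaged (edgeR FDR 0.263). H2-Oa, H2-DMb2 and H2-Eb2 had 58, 53 and 15 reads in all mice. Reads of H2-DMb1 and H2-DMb2, and of H2-Eb1 and H2-Eb2, can be uncertain in their assignment, since these pairs are close paralogs.

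**Figure D4:**
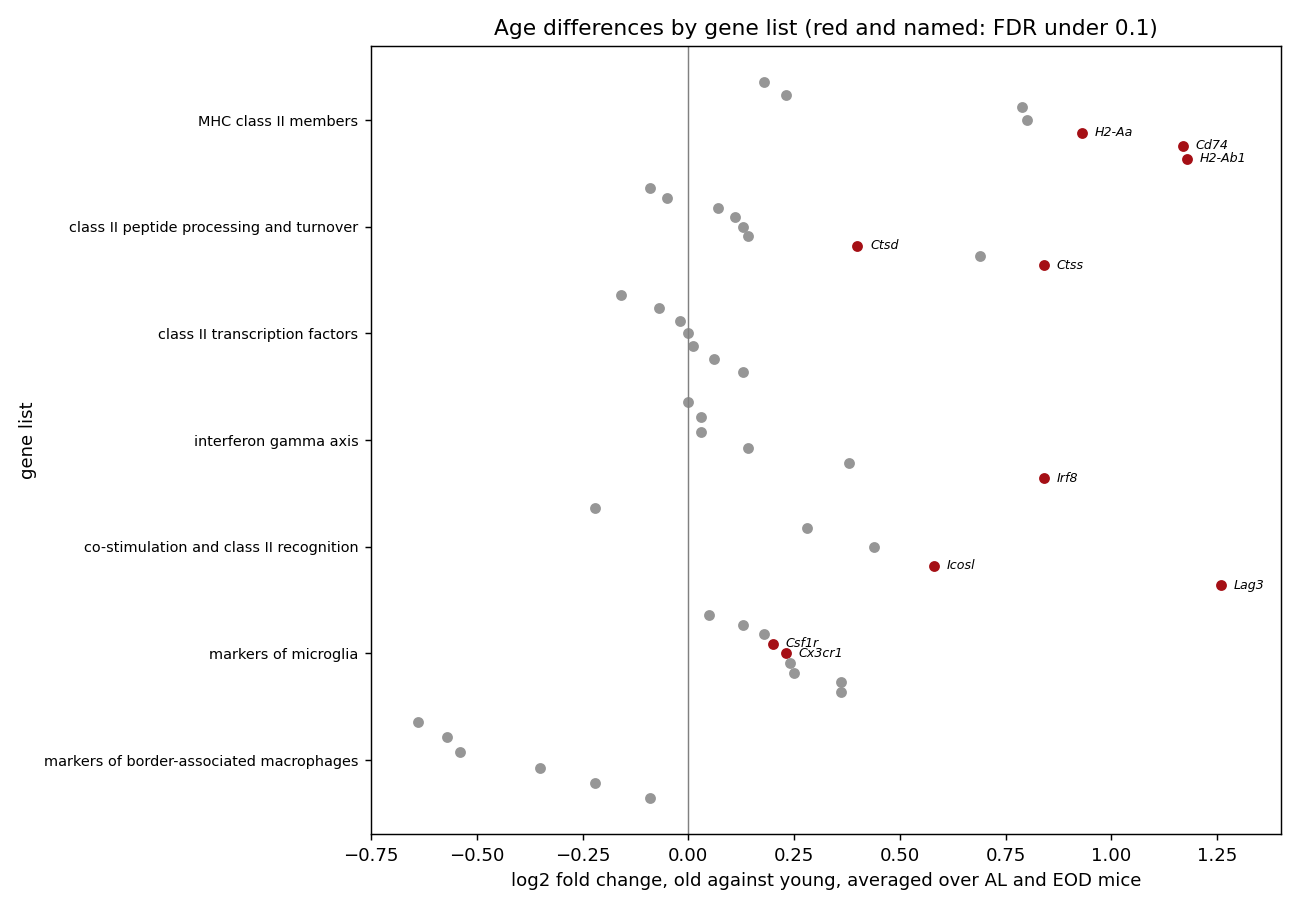
Log2 fold change of old against young mice, averaged over AL and EOD mice (horizontal axis), for tested genes of 7 lists (rows, without genes not reported here), with those at FDR under 0.1 in red and named. The 7 class II genes lie to the right of 0 (0.18 to 1.18), the transcription factors around 0 (-0.16 to 0.13) and the tested border-associated macrophage markers to the left of 0 (-0.64 to -0.09).

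Markers of cells that can carry class II were measured in the same libraries. Of 10 microglia markers, the summed level was 384 to 429 CPM in young AL and 465 to 508 CPM in old AL mice, and 374 to 406 against 452 to 509.7 CPM in EOD mice. None was at 0. Averaged over both regimens, the chemokine receptor gene Cx3cr1 rose by 0.23 ± 0.0617 (edgeR FDR 0.0728) and Csf1r, the receptor that microglia need to survive, by 0.20 ± 0.0527 (FDR 0.0605). In the same 16 alternatives the call of Cx3cr1 was lost in 11 and that of Csf1r in 7, old AL mouse 3 among the mice for both. The median of all 10 markers was 0.23.
Of 7 markers of border-associated macrophages, cells of the meninges and perivascular spaces, 6 were tested and 0 passed in either direction in edgeR. The averaged log2 fold changes of the 6 ranged from -0.64 (Cbr2) to -0.09 (Lyve1). The untested marker, Ms4a7, was higher in old mice, with means of 0.42 and 0.978 CPM in young and old AL mice. In EOD mice its means were 0.541 and 0.878 CPM. The summed level of the 7 markers was 18.9 to 26 CPM in young AL and 11.9 to 22.4 CPM in old AL mice. In EOD mice it was 18.8 to 22.4 CPM in the young and 14.5 to 16 CPM in the old. At an unadjusted p under 0.05, averaged, were Cd163 (-0.54 ± 0.167) and F13a1 (-0.57 ± 0.189).
Among 8 dendritic cell markers, the integrin gene Itgax, also known from activated microglia, rose from 0.0755 to 0.241 CPM in young AL to 2.08 to 2.86 CPM in old AL mice (3.89 ± 0.468, edgeR FDR 6.26e-05). In EOD mice it rose from 0.205 to 0.394 CPM to 1.01 to 2.5 CPM (2.28 ± 0.52, FDR 0.0922), a call lost in 14 of the 16 alternatives, while that in AL mice was lost in none. Of the 8 markers 4 were tested. Averaged, Cd209a was 1.16 ± 0.5 (unadjusted edgeR p 0.0302, FDR 0.351), Flt3 0.32 ± 0.227 and Zbtb46 -0.03 ± 0.0975. Xcr1 and Ccr7 had at most 2 and 4 reads in any group. The summed level of the 8 was 13.4 to 23 CPM in young AL and 22.3 to 25.4 CPM in old AL mice. In EOD mice it was 19.2 to 23.3 CPM in the young and 22.7 to 27 CPM in the old.
The summed level of 7 B cell markers was 18.7 to 41.9 CPM in young AL and 33.8 to 47.8 CPM in old AL mice, most of it Ighm. The value of 41.9 CPM was that of young AL mouse 3, and the other young AL mice had at most 25.3 CPM. In EOD mice the sum was 21.7 to 25.5 CPM in the young and 22.5 to 33.6 CPM in the old. Igkc, the kappa light chain, rose from at most 0.458 CPM in young AL to 1.49 to 6.04 CPM in old AL mice (4.77 ± 0.667, edgeR FDR 0.000329). In EOD mice Igkc was at 0.263 to 0.516 CPM in the young and 0.683 to 2.39 CPM in the old (2.11 ± 0.729, FDR 0.626). Ms4a1, which defines B cells, had at most 3 reads in any group. Ighm was 0.43 ± 0.194 in AL mice (unadjusted edgeR p 0.0369, FDR 0.484). Cd79a, Cd79b and Pax5 were untested, with at most 15 reads in any group. From young to old AL mice their mean CPM went from 0.0458 to 0.289, from 0.178 to 0.317 and from 0.328 to 0.394. In EOD mice it went from 0.135 to 0.161, from 0.439 to 0.165 and from 0.179 to 0.361. Of 8 T cell markers 2 were tested (Cd4 and Trbc2) and 0 passed in edgeR (0 at an unadjusted p under 0.05). The summed level of the 8 was 15 to 16.7 CPM in young AL and 9.84 to 17.1 CPM in old AL mice, most of it Cd4 and Trbc2. The untested markers had at most 16 reads in any group. From young to old, mean CPM of Cd8a went from 0.0209 to 0.199 in AL mice and from 0 to 0.266 in EOD mice. That of Cd3g went from 0 to 0.128 and from 0.0573 to 0.234. Cd8b1 went from 0 to 0.0784 and from 0 to 0.0921, and Cd3d from 0 to 0.0311 and from 0 to 0.0481. Trac went from 0.285 to 0.32 CPM in AL mice and from 0.156 to 0.403 CPM in EOD mice. Cd3e went from 0 to 0.0521 CPM in AL mice and from 0.0684 to 0 CPM in EOD mice. Of 7 monocyte and neutrophil markers S100a9 passed when averaged (2.92 ± 0.796, FDR 0.0735), with 49 of its reads in old AL mouse 3 and at most 16 in any other mouse, and without that mouse the call was lost. Ly6g had no read. What part any of these cells had in the class II values was not tested.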

How the data were processed

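Whole-brain RNA of 15 mice was sequenced (single end, 50 bases). Reads were aligned by the authors with STAR (Ensembl GRCm38) and assigned to genes of Ensembl release 79 by featureCounts 1.5.0-p1 (minimum mapping quality 5, primary alignments, reverse-stranded). The authors deposited whole-number counts, not normalized. Symbols came from the supplied gene names, matched by Ensembl identifier.

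Tests were run in edgeR 4.0.16 (R 4.3.3) on genes that passed filterByExpr (TMM, quasi-likelihood fit of 4 group means, 6 contrasts, Benjamini-Hochberg adjustment over all genes tested, FDR under 0.1). Standard errors were derived from each log2 fold change and its F statistic. Log2 CPM used a prior count of 2. Correlations used 100000 permutations of mice within groups.

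The 7 genes and all lists were chosen with earlier results of these data known. Named are the 7 genes in every mouse, list genes past the threshold and otherwise examples, and the 5 genes most correlated with Cd74. List genes named with values outside this rule were chosen after their values were seen.

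Alternatives were every gene with a count, RLE size factors, genes reaching 10 counts in all mice, total counts, DESeq2 1.42.0, FDR 0.05, replicate block, lane, and leaving out each mouse. DESeq2 on 14 mice, list counts without single mice and within-lane values were added after seeing the data. The edgeR steps were tested on simulated data. Values of genes with few reads per mouse carry a large counting error. Some list genes are not reported here.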

Additional observations from a re-analysis of the deposited data

Results flagged for a closer look

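In the groups of 4 mice, none of the 7 class II genes had a mouse far from the rest by Dixon's criterion. It sets the gap to the nearest mouse against the range of the group. The young EOD group, with fewer mice, was not checked. The criterion was also applied to 27 other genes named with values and 8 marker sums, 126 groups in all, and 19 values met it, where chance flags about 1 in 20 groups.

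Among partner genes, Ctsd was 438 CPM in old EOD mouse 3, against 492 to 499 CPM in the other old EOD mice. Irf8 was 8.7 CPM in old AL mouse 3, against 6.43 to 6.72 CPM, and Lag3 was 10.03 CPM in the same mouse, against 11.5 to 11.6 CPM. Icosl was 3.37 CPM in young AL mouse 1, against 4.76 to 5.04 CPM. Cd4 was 9.07 CPM in young AL mouse 2, against 11.6 to 11.9 CPM, and Cd274 was 3.15 CPM in old AL mouse 2, against 4.79 to 5.11 CPM.

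Among marker genes, S100a9 was 9.27 CPM in old AL mouse 3, against 0.124 to 1.44 CPM. Gfap was 152 CPM in young AL mouse 2, against 173 to 174 CPM. The border macrophage marker Lyve1 was 1.83 CPM in old EOD mouse 4, against 0.91 to 1.01 CPM, and Cd163 was 2.77 CPM in old AL mouse 4, against 3.97 to 4.2 CPM. Gh was 888 CPM and Prl 72.5 CPM in old AL mouse 4, against at most 14.9 and 1.13 CPM in the other old AL mice. In young AL mouse 1 Gh was 4.7 CPM and Prl 1.33 CPM, against at most 0.227 CPM for either, and Prl was 0.192 CPM in old EOD mouse 4 and 0 in the other old EOD mice.

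The summed microglia markers were 452 CPM in old EOD mouse 4, against 504 to 509.7 CPM, and the summed dendritic cell markers 22.3 CPM in old AL mouse 4, against 25.2 to 25.4 CPM. In young AL mouse 3 the summed monocyte and neutrophil markers were 0 CPM, against 1.37 to 1.59 CPM, and the summed choroid plexus markers 339.6 CPM, against 771 to 812 CPM.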

How the results depend on the processing

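Of 990 values of the 7 genes under alternatives, 905 kept direction and side of the threshold, 15 lost and 9 gained a call, and 61 changed sign, 8 of them among 495 age values. Causes were not tested. Counting 10 reads in every mouse dropped H2-Eb1, H2-DMb1 and Ciita. For genes below the count filter no test was needed, since all 7 passed it.

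The count of class II genes called for age in AL mice was 1. It became 3 with every gene with a count (which also called 26 and 27 genes for diet in young and old mice and 26 for the interaction), 2 with DESeq2 and 0 with lane, and 0 to 2 with single mice left out. It fell to 0 without young AL mouse 1 or 3 or old AL mouse 2 or 3. In EOD mice it went from 0 to 1 with every gene with a count and with DESeq2 on 14 mice. Averaged, it went from 3 to 1 with lane and ranged from 1 (without young EOD mouse 1) to 4 (without young AL mouse 3). Genes of all kinds called for age averaged over diets were 365, against 653 with every gene with a count and 237 with lane. For diet in old mice, lane as a covariate and DESeq2 on 14 mice each called 2. For age in AL mice they were 173, against 444 with every gene with a count. In EOD mice they were 46, against 100 with every gene with a count, 70 with DESeq2 and 76 without young AL mouse 3.

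Same-numbered mice did not vary together (21 pairs, r from -0.113 to 0.113), and the numbers were not read as pairs. With replicate number as a block the class II calls numbered 1 for AL mice, 0 for EOD mice and 3 over both, and sign changes were Ciita for diet in young mice (0.05) and H2-DMb1 for the interaction (-0.00).

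Other sign changes were as follows. With lane, Ciita was -0.03 for age in EOD mice and 0.05 for diet in young mice. With DESeq2 on 14 mice, Ciita was -0.17 for age in AL mice and -0.00 averaged, diet in young mice was 0.01 for H2-DMa and 0.19 for H2-DMb1, and the interaction was 0.05 for Cd74, 0.07 for H2-Ab1, -0.28 for H2-DMb1 and 0.34 for Ciita. With single mice left out, Ciita ranged from -0.21 to 0.83 for age in AL mice and from -0.26 to 1.12 in EOD mice. Diet in young mice ranged from -0.30 to 0.04 for H2-Aa, -0.18 to 0.03 for H2-DMa, -0.52 to 0.18 for H2-DMb1 and -0.95 to 0.53 for Ciita. Diet in old mice ranged from -0.58 to 0.03 for H2-Aa, -0.58 to 0.05 for H2-Eb1, -0.17 to 0.01 for H2-DMb1 and -0.37 to 0.22 for Ciita. The interaction ranged from -0.36 to 0.44 for Cd74, -0.44 to 0.18 for H2-Aa, -0.36 to 0.23 for H2-Ab1, -0.26 to 0.53 for H2-Eb1, -0.27 to 0.42 for H2-DMb1 and -0.62 to 0.86 for Ciita. The correlation with Cd74 lost its call for H2-Aa without young AL mouse 3 (r = 0.61). Without the 2 farthest mice its r was 0.75, given as a size only, without a call. The correlation changed sign for H2-DMb1 (0.01) and for Ciita (-0.09).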

Other observations

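Outside the class II lists, the genes most like Cd74 from mouse to mouse within groups were Bex1 (r = 0.87 over 15 mice), Rhbdd2 (0.87), Gm13199 (0.86), Rcc1l (0.86) and Zdhhc7 (0.86), out of 14118 genes compared. Without young AL mouse 3 their r was 0.85 to 0.88. They are the extremes of many correlations, given as a description.

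Of the other marker lists, Gfap of astrocytes rose in both regimens (1.16 ± 0.0567 averaged, edgeR FDR 2.26e-11) and Mbp of oligodendrocytes rose when averaged (0.29 ± 0.0682, FDR 0.0346). Gh and Prl of the pituitary passed in AL mice, with 10570 and 862 reads in old AL mouse 4 and at most 79 and 11 in any other mouse. That mouse was neither the highest nor the lowest old AL mouse for any of the 7 class II genes. None of the markers of red blood cells, choroid plexus, meninges and fibroblasts, endothelium or neurons passed the threshold for age.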
